A study of Mus musculus with 12 samples.

Results

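The genes described here are 10 members of the MYC network, taken by symbol from a table of 54532 mouse genes. They are Myc, Mycn, Max, Mxd1, Mxd3, Mxd4, Mxi1, Mnt, Mga and Mir17hg, and all 10 were among the 15003 genes that passed the filter on low counts. The first 9 were chosen for what they encode. Mir17hg, the host gene of the miR-17-92 microRNA cluster, was chosen by its level in these same libraries, where it had been among the genes higher with metformin than with vehicle. No threshold was given for that choice. Its metformin values below are therefore a description, and the counts of members past a threshold leave them out.

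Bulk RNA was sequenced from uncultured mouse marrow cells that lacked lineage markers and carried the receptor cKit, a gate that holds blood stem cells and early progenitors. There were 4 groups with 3 libraries each, after 1 month of vehicle (VEH) or metformin (MET), a biguanide drug, in a competition experiment in vivo. WT cells were Dnmt3a+/+, and RH cells were Dnmt3afl-R878H/+, with 1 mutant copy of a DNA methyltransferase gene. All 4 groups were on a C57BL/6 background and carried Mx1-cre, a recombinase transgene under an interferon-inducible promoter that also acts outside blood cells. The agent that induced the recombinase, the age of the mice and how competitor cells were kept out of the sort are not given in the labels. With 2 animals stated for each treatment group and 3 libraries, some libraries may share an animal, and which do is not stated. All p-values here therefore rest on the spread between libraries, part of which may be technical.

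MYC and MYCN are transcription factors that pair with MAX and bind the DNA motif CACGTG, the E-box, to raise transcription of growth genes. MXD1, MXI1, MXD3, MXD4, MNT and MGA compete for the same partner and, as pairs with MAX, mostly repress. In bone marrow, MYC is known to drive progenitor expansion and exit from the stem cell niche, MYCN is known for its part in stem cells, and MXD1 is known to rise as granulocytes mature. The miR-17-92 cluster is a known target of MYC that favours survival and proliferation of blood progenitors.

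The primary transcript Mir17hg (ENSMUSG00000089726, lincRNA, mm10 chr14:115042879-115046727, plus strand) carries 6 microRNA hairpins. In GENCODE M21 it has 1 transcript, and all 6 hairpins lie inside its long exon, over 836 bases of the 3849-base gene. The mature products are printed to show what the transcript encodes, 5′ to 3′ from RefSeq (GRCm38.p6), with the seed, bases 2 to 8, in capitals. The seed is the stretch that pairs with target messenger RNAs.
miR-17-5p: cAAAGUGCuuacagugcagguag
miR-20a-5p: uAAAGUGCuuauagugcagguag
miR-18a-5p: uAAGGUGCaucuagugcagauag
miR-19a-3p: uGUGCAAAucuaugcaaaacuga
miR-19b-3p: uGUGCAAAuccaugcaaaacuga
miR-92a-3p: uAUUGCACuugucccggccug
The 6 products share 4 seeds: miR-17-5p and miR-20a-5p have the same one, as do miR-19a-3p and miR-19b-3p. A related cluster on chromosome 5, miR-106b-25, repeats the first and the last of these seeds and is shown for that reason.
miR-106b-5p: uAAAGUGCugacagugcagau
miR-93-5p: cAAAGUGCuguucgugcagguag
miR-25-3p: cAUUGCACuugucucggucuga
The hairpins of the miR-17-92 cluster have rows of their own in the table, and these 6 rows held 0 counts in all 12 libraries. All counts of the locus were therefore under Mir17hg, and they measure the host transcript, not the mature microRNAs. The sources used here do not say how reads that overlap a hairpin and its host were counted.

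**Figure D1:**
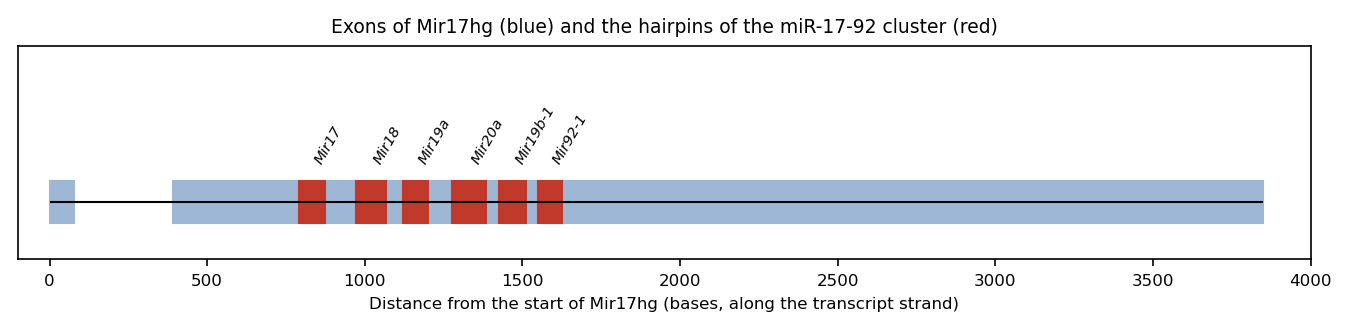
Map of Mir17hg along its own strand in bases from its start, with the exons in blue and the 6 hairpins of the miR-17-92 cluster in red. All 6 hairpins lie in the long exon.

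Mir17hg was higher in the metformin libraries of both genotypes. In wild type it stood at 19.0, 18.4 and 17.2 CPM (read counts scaled to a common library size with TMM normalization) in WT VEH 1 to 3 and at 27.4, 21.3 and 26.5 CPM in WT MET 1 to 3. In the mutant it stood at 20.9, 22.6 and 17.4 CPM in RH VEH 1 to 3 and at 32.6, 36.1 and 22.9 CPM in RH MET 1 to 3. Within each genotype no metformin library overlapped a vehicle library, although the lowest RH MET library was only just above the highest RH VEH library. Metformin was above vehicle without overlap for 4.11% of all genes tested in RH, for 4.98% in WT and for 0.173% in both. Over all 12 libraries the treatments overlapped, since RH VEH 2 was above WT MET 2, and 0.0667% of genes did not overlap. Since Mir17hg was chosen for this contrast, nothing is read from these shares.

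Mir17hg averaged 30.6 ± 6.86 CPM (SD, n = 3) for RH MET and 20.3 ± 2.67 for RH VEH, and 25.1 ± 3.29 for WT MET and 18.2 ± 0.945 for WT VEH. Its counts behind these levels were 189 to 670 per library. The log2 fold change for metformin was 0.54 ± 0.176 (SE) in WT and 0.50 ± 0.178 in RH, a mean of 0.52 ± 0.121 or 1.43-fold. The mean was 0.63 in round 1, the 6 libraries that a smaller deposited table also holds, and 0.34 in round 2, the other 6. In the mutant these values were 0.71 and 0.23. RH MET 3, the only RH MET library of round 2, was the lowest of its group. Without the 2 libraries rich in mitochondrial transcripts, described below, the mean was 0.61.

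The genotype contrast is not the one Mir17hg was chosen on, although it uses the same libraries, so its tests are not independent evidence. Its log2 fold change for RH against WT was 0.23 ± 0.177 (SE) under vehicle and 0.19 ± 0.177 under metformin, and neither passed the threshold (edgeR quasi-likelihood, Benjamini-Hochberg adjusted p = 0.977 and 0.780). Under vehicle the value was 0.11 without RH VEH 2 and also without the 2 libraries rich in mitochondrial transcripts. Under metformin it was 0.12 without those 2 libraries, 0.11 without RH MET 2, 0.28 without WT MET 3 and 0.38 without RH MET 3, and in round 2 alone it had the opposite sign, −0.04.

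**Figure D2:**
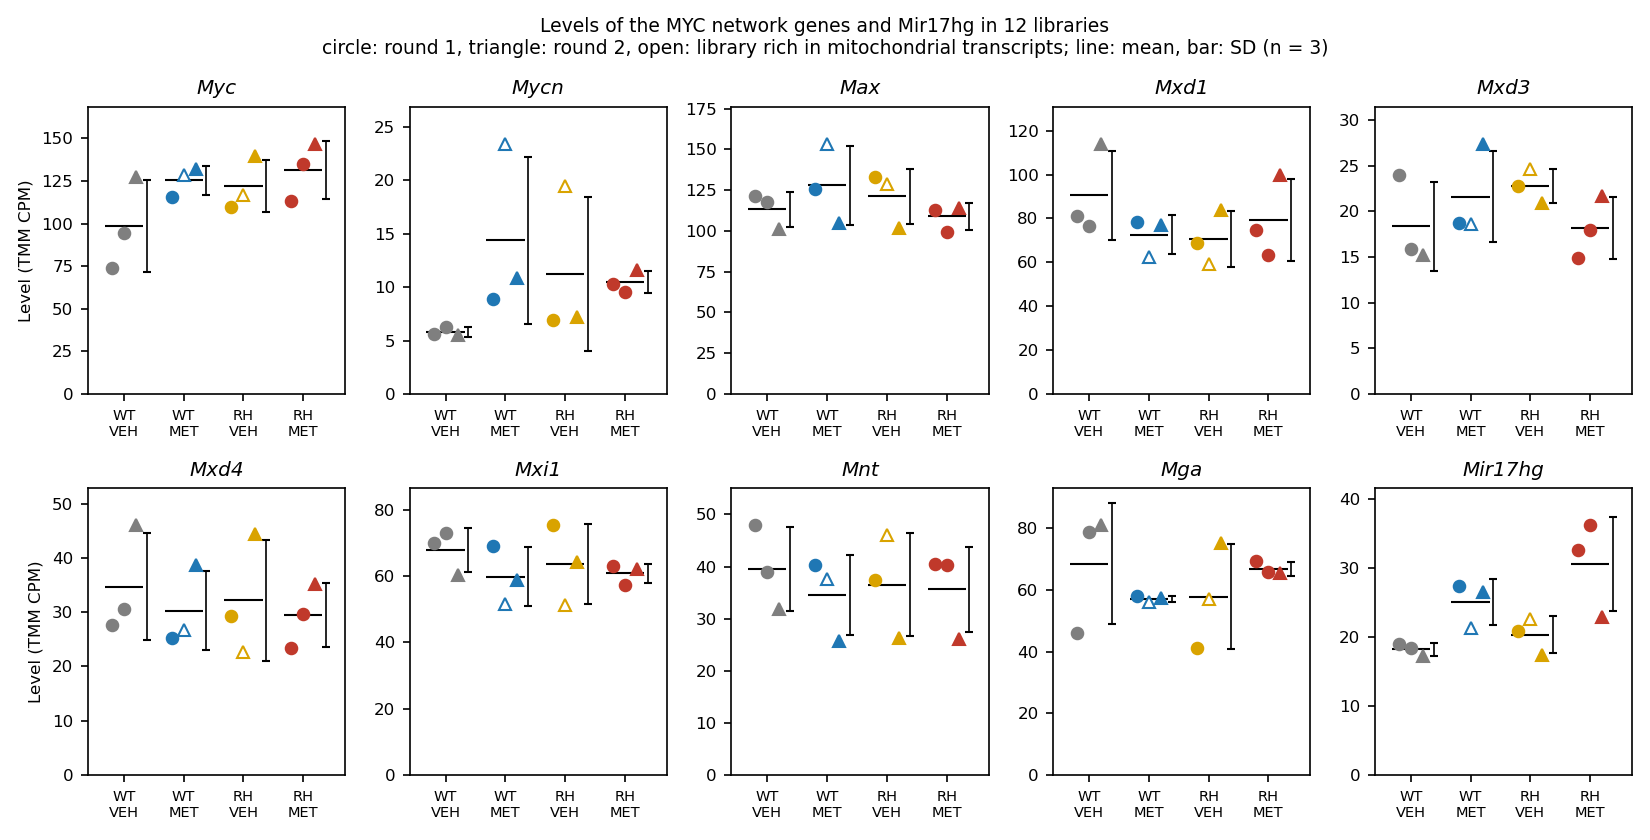
Levels of the 10 genes in CPM, 1 panel a gene, for the 3 libraries of each group; lines are means, bars SD, circles round 1, triangles round 2 and open symbols the libraries rich in mitochondrial transcripts. Mir17hg is higher under metformin within each genotype, and Mycn is highest in the 2 open symbols.

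A pair of libraries stood apart and touches several of the results that follow. RH VEH 2 had 40.8% and WT MET 2 33.3% of its counts from the mitochondrial genome, where the other 10 had 1.57% to 4.32%. After normalization 1 CPM stood for 8.37 to 9.86 reads in these 2 libraries and for 17.0 to 24.8 in the others. Total counts ran from 13359583 to 21938003. Kit stood at 118 to 199.9 CPM in the 12 libraries, while 13 of 13 markers of T and NK cells, a lineage the sort should remove, were also detected and summed to 52.8 to 127 CPM. Dnmt3a stood at 39.7 to 59.9 CPM, a level that does not check a heterozygous point change. In bulk RNA, fewer cells of a type and less RNA per cell cannot be told apart.

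No member passed the threshold of an adjusted p of 0.05 in any of the comparisons by edgeR, where Mir17hg was counted for genotype only. For the mean metformin effect over both genotypes 0 of the other 9 members passed, with 0% of all genes; at an unadjusted p under 0.05 there were Myc and Mycn, against 1.63% of all genes. For the mean genotype effect 0 of 10 passed, with 0.00667% of all genes called, and 0 of 10 had an unadjusted p under 0.05, against 2.65%. The share called was 0% for RH VEH against WT VEH, RH MET against RH VEH, WT MET against WT VEH and the difference of the metformin effects, and 0.00667% for RH MET against WT MET. At an unadjusted p under 0.05 the members were Mxd1 for RH VEH against WT VEH (2.03% of all genes), none for RH MET against WT MET (5.78%), none for RH MET against RH VEH (2.43%), Mycn for WT MET against WT VEH (4.03%), and Mxd1 for the difference (6.21%). With the library number as a block, RH VEH against WT VEH had 0 of 10 members past the threshold (0.0133% of all genes), and Myc, Mycn and Mxd1 at an unadjusted p under 0.05 (4.27%). Over both treatments 0 members, and 0.0933% of all genes, had RH and WT libraries that did not overlap. DESeq2 called none of them either. Standard errors of the mean effects were 0.0980 to 0.268 on the log2 scale.

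**Figure D3:**
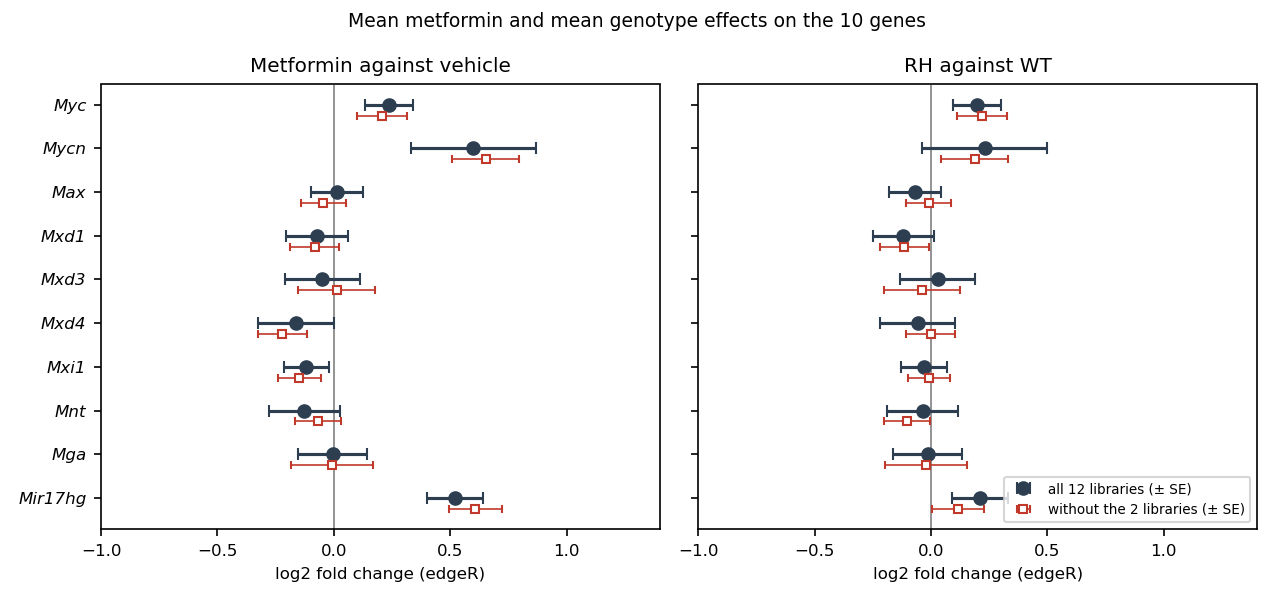
Log2 fold changes with SE of the 10 genes for metformin against vehicle over both genotypes and for RH against WT over both treatments, in all 12 libraries (filled) and without the 2 libraries rich in mitochondrial transcripts (open). Mir17hg, Mycn and Myc have the largest metformin values, 0.52, 0.60 and 0.24, and the other 7 lie between −0.16 and 0.01.

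Among the activators, Mycn (ENSMUSG00000037169, mm10 chr12:12936093-12941914, minus strand) was highest in the libraries that stood apart and, among the others, higher in those with metformin. It stood at 5.57, 6.29 and 5.52 CPM in WT VEH 1 to 3 and at 8.90, 23.3 and 10.8 CPM in WT MET 1 to 3. In the mutant it stood at 6.92, 19.5 and 7.23 CPM in RH VEH 1 to 3 and at 10.3, 9.49 and 11.6 CPM in RH MET 1 to 3. The highest values were WT MET 2 and RH VEH 2, the libraries rich in mitochondrial transcripts, at more than any of the other 10; 13.1% of all genes had both of these libraries on top. Megakaryocyte markers, 6 of 6 in the table and with Gp1bb at 0 in some libraries, were also highest there, at 1373 and 1743 CPM in sum against 498 to 862. By group this sum was 498 to 622 for WT VEH, 668 to 1743 for WT MET, 604 to 1373 for RH VEH and 619 to 654 for RH MET. The part of megakaryocytes in the Mycn values was not tested.

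Without them Mycn did not overlap between treatments, with 5.52 to 7.23 CPM in 5 vehicle and 8.90 to 11.6 CPM in 5 metformin libraries, a pattern noticed in the data. By the same measure, 0.347% of all genes had metformin above vehicle. The mean metformin log2 fold change of Mycn was 0.60 ± 0.268 (SE) with all 12 libraries and 0.65 ± 0.144 without the 2, and neither passed (edgeR adjusted p = 1 for both). The unadjusted p was 0.0448 and 0.000567. Within rounds the value was 0.54 in round 1 and 0.72 in round 2. Leaving out 1 library each, the mean ran from 0.38, without WT MET 2, to 0.87. In wild type alone the log2 fold change was 1.07 ± 0.406 (edgeR adjusted p = 0.876), and it was 0.68 without WT MET 2 and 0.73 without the 2 libraries. In the mutant alone it was 0.57 without the 2 libraries and under 1 SE with them. Mycn had the fewest counts of the members, 101 to 287 per library.

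Myc itself (ENSMUSG00000022346, mm10 chr15:61985391-61990374, plus strand) differed by less. It stood at 74.1, 94.2 and 127 CPM in WT VEH 1 to 3, at 116, 128 and 132 in WT MET 1 to 3, at 109.8, 117 and 139 in RH VEH 1 to 3 and at 113, 135 and 146 in RH MET 1 to 3. The groups overlapped, and the first 2 WT VEH libraries were the lowest of all 12. The mean metformin log2 fold change was 0.24 ± 0.102 (SE) and the mean genotype log2 fold change 0.20 ± 0.102, neither past the threshold (edgeR adjusted p = 1.00 for both). Without WT VEH 1 the genotype value was 0.13. The round 2 libraries other than the 2 that stood apart held 127 to 146 CPM and those of round 1 74.1 to 135. The metformin value in wild type was 0.44 in round 1, which holds WT VEH 1 and 2, and −0.00 in round 2.

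The partner Max (ENSMUSG00000059436, mm10 chr12:76937269-76962201, minus strand), without which neither activators nor most repressors bind the E-box, varied less between libraries than Myc. It averaged 128 ± 24.1 CPM (SD, n = 3) for WT MET, 113 ± 10.9 for WT VEH, 109 ± 8.22 for RH MET and 121 ± 16.8 for RH VEH. All 12 libraries lay between 99.4 and 153 CPM and the groups overlapped. Both mean effects were under 1 SE. For RH against WT under metformin the log2 fold change was −0.26 ± 0.162 (SE; edgeR adjusted p = 0.738), and it was −0.09 without WT MET 2 and −0.10 without the 2 libraries rich in mitochondrial transcripts.

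The repressor gene Mxd1 (ENSMUSG00000001156, mm10 chr6:86647042-86669161, minus strand) ranged from 59.0 to 114 CPM in round 2 and from 63.2 to 81.2 CPM in round 1. It stood at 81.2, 76.6 and 114 CPM in WT VEH 1 to 3, at 78.5, 62.3 and 76.9 in WT MET 1 to 3, at 68.8, 59.0 and 84.0 in RH VEH 1 to 3 and at 75.0, 63.2 and 99.8 in RH MET 1 to 3. Its highest levels, in WT VEH 3 and RH MET 3, were in the libraries with the most late neutrophil transcripts, and its lowest, in RH VEH 2 and WT MET 2, in those with the fewest. Between these extremes the order differed: RH MET 2 had the third-highest neutrophil sum, 3106 CPM, and the third-lowest Mxd1, while WT VEH 1, with 1349 CPM, had 81.2 CPM of Mxd1. For Mxd1, RH VEH 2 and WT MET 2 were both below the other 10 libraries, as for 12.2% of all genes. All 12 of 12 late neutrophil markers were detected in every library. Their sum was 3047 to 4546 CPM for RH MET, 642 to 2588 for RH VEH, 672 to 2969 for WT MET and 1349 to 4664 for WT VEH. Other myeloid markers shared some of these extremes. Monocyte markers were lowest in RH VEH 2 and WT MET 2, at 206 and 289 CPM in sum, and highest in WT VEH 3, at 626. Promyelocyte markers were also lowest in RH VEH 2 and WT MET 2, at 1037 and 920 CPM, and highest in WT VEH 3, at 3434. RH MET 3 had 494 and 3111 CPM, below RH VEH 3 (531) for monocytes and WT MET 3 (3273) for promyelocytes. The part of any of these cells in the Mxd1 values was not tested.

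Mxd1 had a lower value in RH than WT under vehicle, with a log2 fold change of −0.42 ± 0.190 (SE), and a lower value with metformin in wild type, −0.37 ± 0.189. In the mutant the metformin value was 0.23 ± 0.190. None passed (edgeR adjusted p = 0.977, 0.876 and 0.932). The values came largely from round 2, which holds the highest and the lowest libraries: −0.69 for RH against WT under vehicle and −0.74 for metformin in wild type, against −0.21 and −0.02 in round 1. Without WT VEH 3 they were −0.26 and −0.22, without WT MET 1 the wild-type metformin value was −0.62, and the value in the mutant was 0.09 without RH VEH 2 and 0.06 without RH MET 3.

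**Figure D4:**
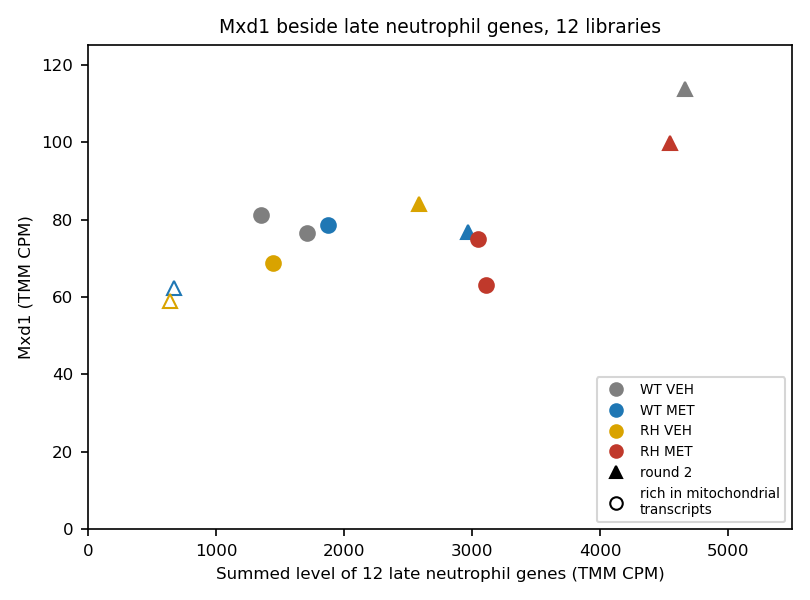
Level of Mxd1 in CPM against the summed level of 12 late neutrophil genes in CPM for the 12 libraries, coloured by group, with triangles for round 2 and open symbols for the libraries rich in mitochondrial transcripts. The libraries with the highest Mxd1, at 114 and 99.8 CPM, have the highest neutrophil sums and those with the lowest, at 59.0 and 62.3 CPM, the lowest sums; RH MET 2, at 63.2 CPM, has the third-highest sum.

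Mxd4 (ENSMUSG00000037235, mm10 chr5:34173883-34187720, minus strand) and Mnt (ENSMUSG00000000282, mm10 chr11:74830920-74845725, plus strand) differed between 10 of the libraries by round. MXD4 is a repressor linked to differentiation, and MNT is the broadly expressed antagonist of MYC. Mxd4 was at 23.4 to 30.5 CPM in the 6 libraries of round 1 and at 35.3 to 46.0 in 4 libraries of round 2, while the 2 rich in mitochondrial transcripts held 22.7 and 26.8 CPM. Mnt went the other way, with 37.4 to 47.9 CPM in round 1, 25.8 to 31.8 in the 4 libraries of round 2, and 37.5 and 46.0 in the 2 libraries.

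Neither gene overlapped between the rounds when the 2 libraries were left out, which held for 13.2% of all genes, so 2 of 10 members is no result about them. Mxd4 averaged 34.7 ± 9.89 CPM (SD, n = 3) for WT VEH, 30.2 ± 7.29 for WT MET, 32.2 ± 11.2 for RH VEH and 29.4 ± 5.93 for RH MET, with overlap between all groups. For Mnt the means were 39.6 ± 8.05, 34.6 ± 7.75, 36.5 ± 9.92 and 35.6 ± 8.22 CPM in that order. The largest value of either gene in the 4 comparisons of single groups was −0.31 ± 0.235 for Mxd4 with metformin in wild type (edgeR adjusted p = 0.876), and it was −0.18 without WT VEH 3.

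Mxi1 (ENSMUSG00000025025, mm10 chr19:53310506-53375810, plus strand) is another MXD repressor. It was at 51.4 and 51.5 CPM in the 2 libraries rich in mitochondrial transcripts and at 57.4 to 75.3 in the other 10. Both libraries were below all others for 12.2% of all genes and for 2 of the 10 members, Mxd1 and Mxi1. This is no result about Mxi1. Its mean metformin log2 fold change was −0.12 ± 0.0980 (SE, edgeR adjusted p = 1), and −0.19 without RH VEH 2 and also without RH MET 3. Mxd3 (ENSMUSG00000021485, mm10 chr13:55325168-55329823, minus strand), which unlike the other MXD genes is known to be expressed in proliferating cells, ranged from 14.9 to 27.3 CPM. The mean was 18.4 ± 4.88 CPM (SD, n = 3) for WT VEH, 21.6 ± 4.98 for WT MET, 22.8 ± 1.83 for RH VEH and 18.2 ± 3.41 for RH MET. Proliferation markers, 10 of 10 detected, summed to 5161 to 6987 CPM for WT VEH, 5524 to 5864 for WT MET, 5588 to 6325 for RH VEH and 5466 to 5760.1 for RH MET. The groups overlapped for Mxd3.

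Mga (ENSMUSG00000033943, mm10 chr2:119897228-119969581, plus strand) encodes a large MAX partner of the Polycomb complex PRC1.6. It stood at 45.9, 78.8 and 80.8 CPM in WT VEH 1 to 3 and at 58.0, 56.1 and 57.3 in WT MET 1 to 3. In the mutant it stood at 41.2, 56.9 and 75.2 CPM in RH VEH 1 to 3 and at 69.5, 65.7 and 65.4 in RH MET 1 to 3. The vehicle groups were spread on both sides of the metformin groups, with an SD of 19.6 and 17.0 CPM against 0.976 and 2.28. The difference between its metformin effects, RH minus WT, was 0.64 ± 0.319 (SE, log2; edgeR adjusted p = 0.648), and it was 0.39 without RH VEH 1.

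Levels between the genes were compared as CPM per kilobase of the deposited gene length. By the median of 12 libraries the order was Myc (45.0 CPM per kb), Max (32.2), Mxi1 (11.1), Mxd1 (10.8), Mxd3 (8.38), Mnt (8.27), Mir17hg (6.21), Mga (4.02), Mxd4 (3.48) and Mycn (2.79). Of the neighbours in this order, Max and Mxi1 did not overlap, with 27.6 to 42.5 against 9.14 to 13.4 CPM per kb, and every other pair of neighbours did. Myc was above 92.2% and Mycn above 41.6% of tested genes on this scale. Between its lowest and highest library Mycn varied 4.23-fold, Mir17hg 2.10-fold and Mxi1, the least variable, 1.47-fold.

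The other genes of the network are given by list, chosen with earlier results of these data known. Of 45 MYC-induced targets, genes for nucleolar, translation and metabolic proteins, 0 passed in either direction for metformin and 0 for genotype by edgeR. For metformin 17 were higher and 28 lower, with a median log2 fold change of −0.01, the same as over all genes tested (−0.01). The 3 of smallest p for this mean effect were Gnl3 at 0.16 ± 0.104 (SE), Wdr12 at 0.09 ± 0.0757 and Tcof1 at −0.12 ± 0.103. All 3 are for ribosome biogenesis. Single genotypes held larger values. Cad was at −0.48 ± 0.169 with metformin in WT and at 0.35 ± 0.173 in RH. Its difference, RH minus WT, was 0.83 ± 0.250 and had the smallest p of the list there (edgeR adjusted p = 0.648). For genotype 33 were higher and 12 lower, with a median of 0.04 beside 0.00 over all genes, and the 2 of smallest p were the telomerase gene Tert at −0.73 ± 0.424, with at most 3.65 CPM, and the mitochondrial chaperone gene Hspd1 at 0.11 ± 0.0951.

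Of 8 tested MYC-repressed targets, 0 passed in either comparison by edgeR. For genotype 1 was higher and 7 lower (median log2 fold change −0.05), and for metformin 5 were higher and 3 lower (median 0.05). The cell cycle inhibitor gene Cdkn1a, which is also on the list of miR-17-92 targets, was at −0.49 ± 0.180 (SE) for genotype and −0.33 ± 0.181 for metformin. Over all genes tested 49.7% were higher for genotype (median −0.001) and 47.7% for metformin (median −0.007). Of 23 tested miR-17-92 targets 0 passed. For genotype 8 were higher and 15 lower, with a median of −0.06, and for metformin 6 were higher and 17 lower, with a median of −0.08. The metformin values leaned lower mainly in WT, with 4 targets higher and 19 lower (median −0.15). In RH 10 were higher and 13 lower (median −0.05). A part of the microRNAs in these values was not tested. Of these targets, the NF-kB inhibitor gene Tnfaip3 (−0.46 ± 0.165) and the cytokine signalling inhibitor gene Socs1 (−0.53 ± 0.253) had the smallest p for the mean metformin effect.

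Cofactors had small median values for metformin over both genotypes, where 47.7% of all genes tested were higher (median −0.007). Of 12 MYC coactivator genes 2 were higher and 10 lower (median log2 fold change −0.05). Of 11 corepressor genes of MXD and MNT 3 were higher and 8 lower (median −0.04), and of 10 partners of MGA in PRC1.6 7 were higher and 3 lower (median 0.01), with Yaf2 at 0.20 ± 0.0984 (SE). Of 17 genes for MYC protein turnover 4 were higher and 13 lower (median −0.06). The lean lower was in RH, with 5 higher and 12 lower (median −0.19). In WT 11 were higher and 6 lower (median 0.08). Among the turnover genes the kinase gene Pim1, which stabilises MYC, was at −0.26 ± 0.124 for metformin over both genotypes and −0.44 ± 0.124 for genotype. None of these genes passed by edgeR (adjusted p = 1 for each metformin value over both genotypes and 1.00 for the genotype value).

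Of 7 tested further network genes 2 were higher and 5 lower for metformin (median −0.05). Of 9 genes that process microRNAs 4 were higher and 5 lower (median −0.03), with 0 passing in both lists. The mean hides a split of these 9 by genotype. In WT 2 were higher and 7 lower (median −0.16), where 51.9% of all genes were higher. In RH 7 were higher and 2 lower (median 0.11), where 49.3% of all genes were higher. For the difference, RH minus WT, 8 of 9 were positive (median 0.29), against 48.3% of all genes, and 0 passed. A split was not particular to this list. For the same difference 9 of 12 MYC coactivator genes were positive (median 0.08). Of the 17 turnover genes 13 were negative (median −0.20). Mcm7, the replication helicase gene that hosts the miR-106b-25 cluster with 2 of the same seeds, was at −0.10 ± 0.0932 (SE) for metformin and −0.06 ± 0.0933 for genotype. Its level of 673 to 1062 CPM did not separate the groups.

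**Figure D5:**
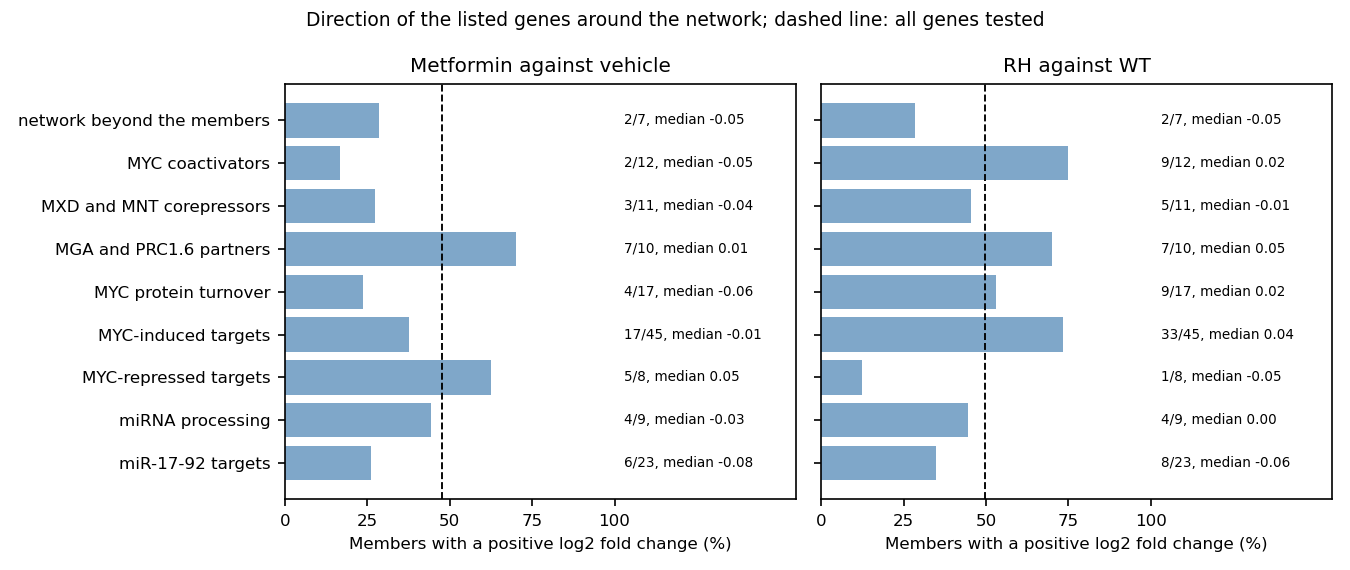
Share of tested genes with a positive log2 fold change in 9 lists around the network, in percent, for metformin against vehicle and for RH against WT, each over both levels of the other factor; the numbers give members higher of members tested and the median log2 fold change. The dashed line marks all 15003 genes tested. No gene of these lists passed the threshold.

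The E-box CACGTG, which reads the same on both strands, was searched in RefSeq promoter windows (GRCm38.p6) from 250 bases before to 50 after a gene's start. It was in 3 of the 9 members with a window, against 8.09% of all genes with a window and 7.15% of all 32851 windows. Myc has no window in the table, and that of Mir17hg lies inside its long exon. The matches are shown with the motif in capitals, on the strand of the gene, since MAX and its rivals bind this motif. Distances run from the RefSeq start to the first base of the motif, and RefSeq starts differ from the gene bounds of the deposited table given above.
Mxd4 (chr5:34187912-34187941, first base 219 before the start): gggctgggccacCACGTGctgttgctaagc
Mnt (chr11:74830789-74830818, first base 123 before the start): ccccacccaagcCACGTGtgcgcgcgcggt
Max (chr12:76962234-76962263, first base 3 before the start, which the motif spans): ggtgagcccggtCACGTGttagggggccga
Of the 36 MYC-induced targets with a window, 11 held the motif (30.6%). A match describes letters in the window and is not evidence of binding.

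The genes whose levels were most like those of Mir17hg over the 12 libraries, by Pearson correlation of log2 CPM after removing round means, were Ftx (r = 0.91), Snord49a (0.86), Gtpbp8 (0.85), Mettl5 (0.83) and Zfp626 (0.83). Ftx is a noncoding gene of the X inactivation centre and Mettl5 encodes a methyltransferase of ribosomal RNA. The most opposite were Cd22 (r = −0.88), a B cell receptor gene, Mex3a (−0.86), Scpep1 (−0.85), Sh2d2a (−0.82) and Ctnna1 (−0.80). Among the members Mir17hg was closest to Myc (r = 0.65) and Mycn (0.60) and most opposite to Mxi1 (−0.68). Without removing round means these were 0.25, 0.34 and −0.24, and the order changed: Mycn was ahead of Myc, and Mxd4 (−0.47) and Mxd1 (−0.42) were more opposite than Mxi1. Treatment means were not removed. All correlations with Mir17hg therefore include the metformin contrast on which it was chosen, and nothing is read from them.

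For Myc the closest genes were Lpar6 (r = 0.92), Mgme1 (0.91), Mtcp1 (0.90), Erlin2 (0.90) and Zfp52 (0.87), and the most opposite Puf60 (−0.85), Zfp212 (−0.84), Nrip3 (−0.84), Sod2 (−0.84) and Sf3b2 (−0.84). Puf60 and Sf3b2 encode splicing factors. These are the extremes of 10614 genes over 12 points that share groups, rounds and depth, and they are given as a description with no test.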

How the data were processed

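Raw read counts per gene were deposited by the authors as whole numbers with no normalization, with a gene length for each gene. Per the submitters' processing notes, the tools were STAR 2.5 and HTSeq 0.6.1 and the build mm10; their settings are not known here. The library kit named in the labels does not mark strand, so reads of a gene and of one antisense to it cannot be told apart. A table of 12 libraries was used. A second table shared 6 of its columns (round 1; the other 6 are round 2), and 2 more of its columns matched no sample and were not used here. The group of every column is known from its name, and for 7 columns the exact sample is not. Library numbers are those of the columns.

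edgeR 4.0.16 (quasi-likelihood, robust; R 4.3.3) was run on the counts with TMM normalization, filterByExpr, group means and a round term over all 12 libraries, with adjusted p over 15003 genes and a threshold of 0.05. The script was tested on simulated data. DESeq2 1.42.0 was an alternative. Between WT VEH and RH VEH the column numbers were taken as pairs from the data alone. Deviations of all 3 same-numbered pairs correlated above 0.1 (0.121 to 0.489). However, RH VEH 2 was closer to WT VEH 1 (0.203) than to WT VEH 2 (0.121). The pairs are therefore uncertain, and fits with the library number as a block rest on this choice. Levels are CPM; correlations used log2 CPM with a prior count of 2. Named are all members, up to 3 genes of smallest p per list, and the 5 most and least alike genes. The members and lists were chosen with earlier results of these data known. Depth was 13359583 to 21938003 counts, and Mycn had the fewest counts.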

Additional observations from a re-analysis of the deposited data

Results flagged for a closer look

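For Mxd1 the difference between the metformin effects of the genotypes was 0.597 on the log2 scale (RH minus WT, SE 0.272, n = 3 per group). It did not pass, with an unadjusted p of 0.0478 (edgeR quasi-likelihood, adjusted p = 0.648). An unadjusted p under 0.05 held for 6.21% of all genes and for 1 of 10 members, so this is no result about Mxd1. DESeq2 gave an unadjusted p of 0.0531. The difference was 0.02 in round 1 and 1.23 in round 2, and it was 0.36 without the 2 libraries rich in mitochondrial transcripts. Late neutrophil transcripts were highest in WT VEH 3 and RH MET 3 and lowest in WT MET 2 and RH VEH 2, the libraries of round 2 behind the difference. In round 1 they were also higher with metformin in RH, at 1444 CPM in RH VEH 1 and 3047 and 3106 in RH MET 1 and 2, against 1349 and 1711 in WT VEH 1 and 2 and 1876 in WT MET 1, where Mxd1 showed a difference of 0.02. Monocyte and promyelocyte markers were also lowest in WT MET 2 and RH VEH 2. The part of any of these cells in the Mxd1 difference was not tested.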

How the results depend on the processing

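In 1358 fits of the members over all comparisons and settings with a test, the metformin comparisons of Mir17hg left out, 0 passed the threshold, with a smallest adjusted p of 0.106. Of the 34 member values above 1 SE, 4 changed sign, all in round 2 alone: Myc for RH against WT under vehicle (−0.0197) and for metformin in WT (−0.00112), Mir17hg for RH against WT under metformin (−0.0425) and Max for metformin in RH (0.0144). Counts of all genes called changed more. DESeq2 called 3 genes for RH VEH against WT VEH, 22 for RH MET against WT MET, 1 for WT MET against WT VEH and 17 for the mean genotype effect. With no filter on low counts edgeR called 175 for RH VEH against WT VEH, 362 for RH MET against WT MET, 229 for RH MET against RH VEH, 218 for WT MET against WT VEH, 431 for the difference of metformin effects, 119 for the mean genotype effect and 63 for the mean metformin effect; the cause was not tested. Without the 2 libraries rich in mitochondrial transcripts it called 3 for RH VEH against WT VEH, 1 for RH MET against RH VEH, 1 for the difference and 3 for the mean genotype effect. For RH MET against WT MET 0 were called with no round term and 0 with only the groups compared. Leaving out 1 library each gave 0 to 2 for RH VEH against WT VEH, 0 to 2 for RH MET against WT MET, 0 to 1 for RH MET against RH VEH, 0 to 1 for the difference and 1 to 2 for the mean genotype effect.

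With the library number as a replicate block, 2 genes were called for RH VEH against WT VEH and the other counts were as before. Deviations of same-numbered libraries correlated at 0.121 to 0.489 between WT VEH and RH VEH, where every pair was above 0.1, and at −0.0143 to 0.336 in the other comparisons, where not every pair was. The numbers were taken as pairs for the former only, although RH VEH 2 was closer to WT VEH 1 (0.203) than to WT VEH 2 (0.121). Of 12 libraries 11 correlated best, on average, with their own number. Libraries numbered 1 were all of round 1 and those numbered 3 all of round 2, and round was not removed here. Median correlations were 0.152 for the same number and 0.131 for the same round, against −0.152 and −0.142 otherwise. The count cannot tell a shared number from a shared round. With the block, more members had an edgeR unadjusted p under 0.05 outside RH VEH against WT VEH, the metformin values of Mir17hg left out. For WT MET against WT VEH they were Myc (0.0114), Mxd1 (0.0328) and Mycn (0.00207), with 1172 of 15003 genes. For the difference they were Mxd1 (0.0227) and Mycn (0.0272), with 1961 genes. For the mean metformin effect they were Myc (0.0191) and Mycn (0.0113), with 337 genes. For the mean genotype effect it was Myc (0.0486), with 504 genes. These fits rest on numbers not taken as pairs, and no adjusted p of a member passed. Without removing round means, 3 of the 5 genes most like Mir17hg and 2 of the 5 least like it were shared, and 3 of 5 on each side for Myc. Depth is lowest for Mycn, at 101 to 287 counts.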
